A study of Mus musculus with 18 samples.

Results

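Aquaporins are membrane channels that let water, and in the aquaglyceroporin branch also glycerol, cross cell membranes. In the kidney, *Aqp1* carries water out of the proximal tubule and the thin descending limb. Vasopressin moves *Aqp2* into the apical membrane of collecting duct principal cells, and the water then leaves through *Aqp3* and *Aqp4* on the basolateral side. *Aqp7* takes up glycerol in the straight proximal tubule, *Aqp6* sits in vesicles of intercalated cells, *Aqp8* and *Aqp11* lie mostly inside cells, and *Aqp5* is best known from glands.

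The 9 genes *Aqp1* to *Aqp8* and *Aqp11* were taken by name from 45706 genes counted in each of 18 whole mouse kidneys, and 30346 genes had a count in at least 1 kidney. Mice were C57BL/6 by the labels (C57BL/6J in the study's methods), males and littermates, 10 to 12 weeks old at surgery. The *Cxcl12* cohort held 5 KO and 3 control kidneys, and the *Myc* cohort held 5 KO and 5 control kidneys. KO mice carried the floxed *Cxcl12* or floxed *Myc* gene with the Pax8rtTA and TetOCre transgenes. Controls carried the same floxed gene and Pax8rtTA but lacked TetOCre. All mice of both genotypes drank doxycycline for 14 days with a washout of 1 week. All kidneys were then made ischemic on both sides for 22.5 min and reperfused for 12 h, so that no uninjured kidney was part of the comparison. Pax8rtTA drives the recombinase in tubule and collecting duct cells, so that vessels, interstitium and blood cells of the same kidneys are outside its reach.

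Gene counts per kidney summed to 12918220 to 29749500. Values below are CPM, that is gene counts relative to the library's total gene count, scaled by TMM, unless a log2 fold change is named. In 6 kidneys under 5% of reads were unmapped (*Cxcl12* KO 1 and 2, *Myc* KO 3 and 5, *Myc* control 1 and 3). None of the 6 was a *Cxcl12* control, so the 2 *Cxcl12* KO kidneys among them cannot be compared with controls of their kind. *Cxcl12* was at 26.3 to 40.9 CPM in *Cxcl12* KO and 44.9 to 60.5 CPM in *Cxcl12* control kidneys (log2 fold change -0.73, edgeR quasi-likelihood adjusted p = 0.094). *Myc* was at 26.6 to 37.0 CPM in *Myc* KO and 79.7 to 117 CPM in *Myc* control kidneys (log2 fold change -1.61, edgeR quasi-likelihood adjusted p = 8.8e-05). Neither set of ranges overlapped. Nothing in the labels names separate batches, and p-values measure the spread between these kidneys.

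A pair of channels made up most of the aquaporin mRNA in every kidney. Over all 18 kidneys, *Aqp2* had 404 ± 137 CPM (SD, n = 18) and *Aqp1* had 358 ± 68.5 CPM, and together they held 78.7% to 89.1% of the counts on the 9 genes (median 84.7%). *Aqp3* followed with 71.3 ± 18.2 CPM and *Aqp4* with 31.3 ± 21.6 CPM. *Aqp11*, *Aqp7* and *Aqp6* lay close together at 13.8 ± 2.86, 12.9 ± 4.42 and 12.7 ± 4.36 CPM. *Aqp8* reached only 1.38 ± 1.02 CPM. *Aqp5* had 2 to 11 counts per kidney, did not pass the filter on low counts in either cohort, and was not tested.

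Levels of different genes can be compared only per length, and *Aqp4* (15389496 to 15410982 on chromosome 18 of GRCm38) has more annotated exon bases than its transcripts have on median. Per kilobase of merged exons the order was *Aqp2* (285 CPM per kb), *Aqp1* (136), *Aqp3* (39.0), *Aqp6* (5.25), *Aqp4* (5.01), *Aqp7* (4.57), *Aqp11* (1.46), *Aqp8* (0.875) and *Aqp5* (0.118). *Aqp6*, *Aqp4* and *Aqp7* were not separated beyond their spread over kidneys (SD 1.80, 3.46 and 1.56 CPM per kb). With exon bases of the GENCODE basic set, *Aqp4* stood above *Aqp6* (5.29 against 5.25 CPM per kb), and with the median transcript length *Aqp4* was at 24.4 CPM per kb. With either of these lengths *Aqp11* was at 3.68 CPM per kb, and *Aqp5* at 0.171 and 0.221 CPM per kb. *Aqp6* was at 7.29 CPM per kb with the median transcript length.

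The genes differed in how much they varied. Over all kidneys, the highest CPM was 1.84 times the lowest for *Aqp11* and 2.11 times for *Aqp1*, but 10.1 times for *Aqp4* and 12.4 times for *Aqp8*. Ordering the 4 groups of each gene by mean, the ranges of neighbouring groups overlapped for all 9 genes. *Aqp8* group means ran from 3.07 ± 1.27 CPM in *Cxcl12* control (n = 3) to 0.765 ± 0.352 CPM in *Myc* KO kidneys (n = 5). The *Cxcl12* controls had the highest group mean for *Aqp6*, *Aqp7*, *Aqp8* and *Aqp11* (18.8, 19.1, 3.07 and 16.9 CPM). For *Aqp7*, *Aqp8* and *Aqp11* the *Cxcl12* KO means (13.2, 1.24 and 12.0 CPM) were near those of *Myc* controls (12.1, 1.14 and 11.9 CPM). For *Aqp6* they were 9.56 and 12.25 CPM. *Cxcl12* controls all lay above *Myc* controls for *Aqp7* (18.11 to 20.85 against 9.037 to 17.96 CPM) and *Aqp11* (14.26 to 19.08 against 10.35 to 13.96 CPM). For *Aqp8* they did so by a narrow margin (1.604 to 3.826 against 0.7709 to 1.601 CPM). What set the control groups apart was not tested.

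**Figure D1:**
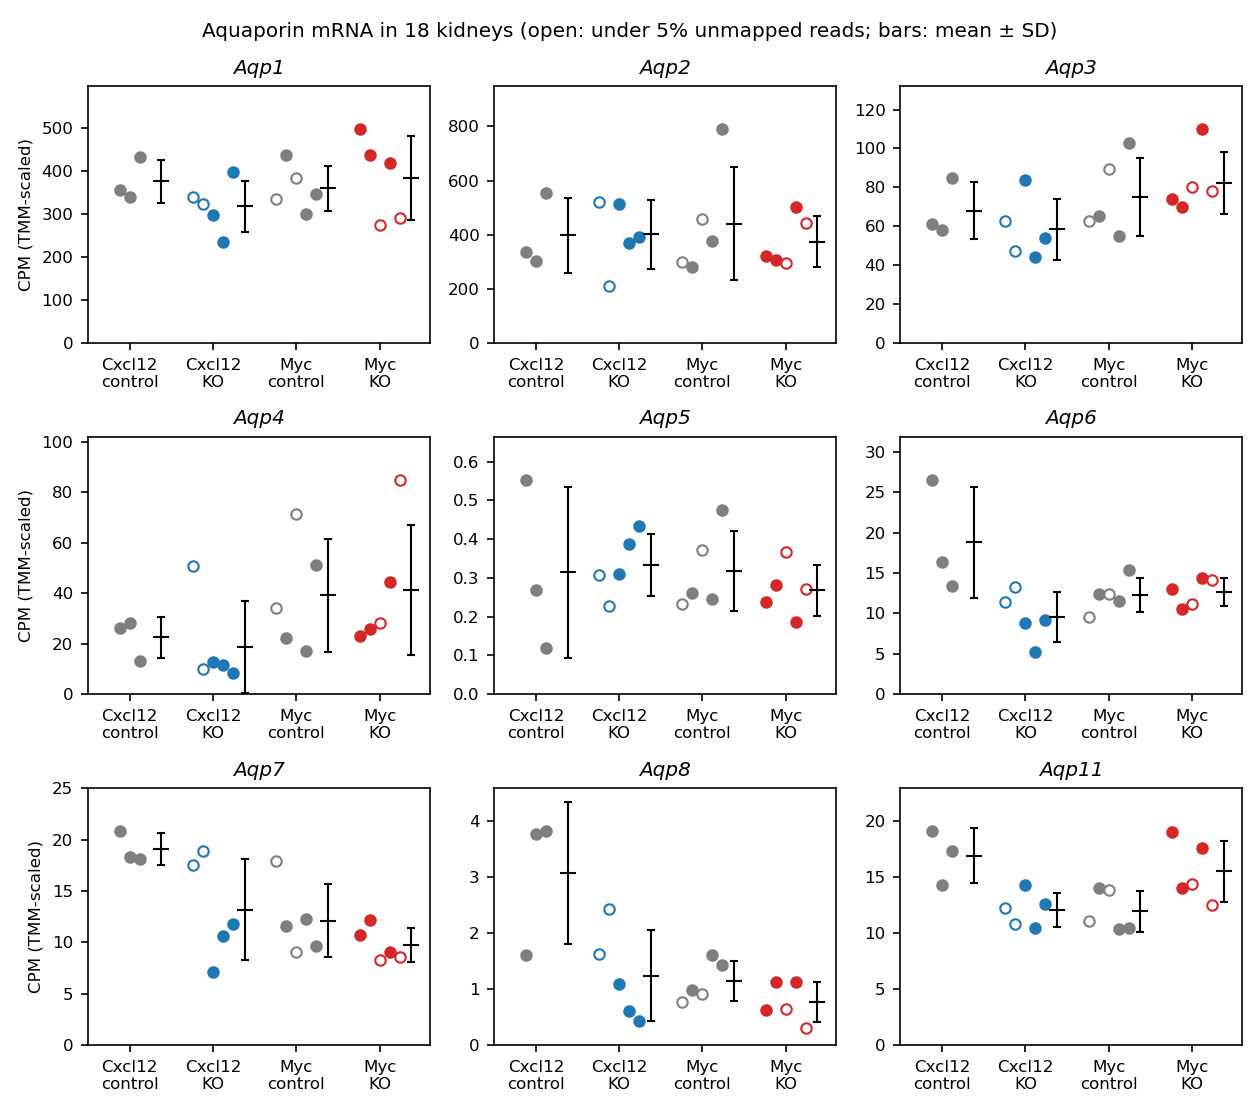
CPM (TMM-scaled, linear axes from 0) of the 9 aquaporins in each kidney, by group, with open circles for the 6 kidneys with under 5% unmapped reads and bars for the group mean ± SD. *Aqp6* and *Aqp11* of the *Cxcl12* cohort are the panels in which all KO kidneys lie below all controls, for *Aqp11* by a narrow margin (14.24 against 14.26 CPM).

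In the *Cxcl12* cohort, 7 of the 8 tested aquaporins had lower means in KO kidneys, with a median log2 fold change of -0.38 against 0.0008 over all 15154 genes tested. None passed the test. With edgeR (quasi-likelihood, Benjamini-Hochberg), 0 of 8 aquaporins were called at an adjusted p under 0.05, and 0% of all genes were. At an unadjusted p under 0.05 the count was 3 of 8, all lower (*Aqp6*, *Aqp8* and *Aqp11*), against 13% of all genes in either direction. DESeq2 called *Aqp6* among the 7 it tested, where it called 2.49% of all genes, and limma voom called 0 of 8 and 0% of all genes. The KO kidneys all lay below the controls for 2 of 8 (*Aqp6* and *Aqp11*), where 9.68% of all genes had ranges apart in either direction.

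*Aqp6*, the intercalated cell channel, was lower in all KO kidneys than in any control of the *Cxcl12* cohort. It was at 11.4, 13.3, 8.79, 5.16 and 9.18 CPM in *Cxcl12* KO kidneys 1 to 5. Controls 1 to 3 had 26.6, 16.4 and 13.4 CPM. All KO kidneys were below all controls, but KO 2 and control 3 nearly touched, and control 1 stood far above the other controls. The log2 fold change was -0.97 (SE 0.28, edgeR quasi-likelihood adjusted p = 0.197, two-sided exact permutation p = 0.0357, the smallest 5 against 3 kidneys allow). DESeq2 gave an adjusted p of 0.033 for *Aqp6*, and edgeR without the filter on low counts gave 0.048. Without control 1 the log2 fold change was -0.63, and the range of adjusted p over 20 alternatives was 0.033 to 0.61.

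Intercalated cell markers gave a mixed background for *Aqp6*. Of 9 markers 6 were lower in *Cxcl12* KO kidneys, with a median log2 fold change of -0.12 and 0 called. The summed marker level was 246 to 436 CPM in KO and 323 to 386 CPM in control kidneys, so the groups overlapped. *Slc4a1*, the anion exchanger of acid-secreting cells, was at 0.496 to 1.099 CPM against 2.03 to 2.64 CPM (log2 fold change -1.43, edgeR quasi-likelihood adjusted p = 0.097). *Insrr*, a receptor that senses alkaline pH in the base-secreting cells, was at 3.10 to 7.43 CPM against 7.53 to 14.3 CPM (log2 fold change -1.14). These were the 2 lowest of the 9 markers and the 2 with ranges apart, where 9.68% of all genes had ranges apart in either direction. The markers that were higher in mean were *Foxi1*, *Slc26a4* and *Atp6v1g3* (log2 fold change 0.25, 0.15 and 0.02). In a whole kidney, fewer cells of a type and less RNA per cell cannot be told apart.

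*Aqp11*, found in the membrane of the endoplasmic reticulum and needed to keep proximal tubules from forming cysts in mice, was the other gene with ranges apart. It had 12.2, 10.8, 14.2, 10.4 and 12.5 CPM in *Cxcl12* KO kidneys 1 to 5. The 3 controls had 19.1, 14.3 and 17.3 CPM. The other KO kidneys sat below all controls by a clear margin, and KO 3 was level with control 2. The log2 fold change was -0.50 (SE 0.14, edgeR quasi-likelihood adjusted p = 0.18, two-sided exact permutation p = 0.0357). It was -0.46 without the 6 kidneys with few unmapped reads.

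*Aqp8* was the least abundant gene tested and had the largest fold change. KO kidneys 1 to 5 of the *Cxcl12* cohort had 1.63, 2.43, 1.09, 0.611 and 0.434 CPM. In control kidneys 1 to 3 it was at 1.60, 3.77 and 3.83 CPM. KO 1 and 2 overlapped control 1, and these values rest on 7 to 70 counts per kidney. The log2 fold change was -1.25 (SE 0.48, edgeR quasi-likelihood adjusted p = 0.32), and without the 6 kidneys with few unmapped reads it was -2.15 (edgeR quasi-likelihood adjusted p = 0.094). In this cohort that setting left out only KO 1 and 2, the highest KO kidneys, and no control. The KO kidneys kept had 7 to 14 counts.

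*Aqp7*, the glycerol channel, split by mapping within the KO group. KO kidneys 1 to 5 had 17.6, 18.9, 7.08, 10.6 and 11.8 CPM. The control kidneys had 20.9, 18.3 and 18.1 CPM. KO 1 and 2, both with few unmapped reads, were near the controls, and the other 3 KO kidneys were far below them (mean 9.82 against 19.1 CPM). Over all 8 kidneys the log2 fold change was -0.52 (SE 0.26, edgeR quasi-likelihood adjusted p = 0.42). A term for the 6 kidneys with few unmapped reads gave -0.96 (edgeR quasi-likelihood adjusted p = 0.039), and leaving those kidneys out gave -0.96 (adjusted p = 0.07). In this cohort both settings take only KO 1 and 2 out of the comparison, so they are not separate checks. Since no *Cxcl12* control had few unmapped reads, what set KO 1 and 2 apart and the spread among KO mice cannot be told apart.

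Genes that handle the glycerol *Aqp7* carries were lower for 5 of 6, with 0 called and a median log2 fold change of -0.28. *Gpd1*, which links glycerol phosphate to glycolysis, was at 149 to 224 CPM in KO and 220 to 377 CPM in control kidneys (log2 fold change -0.65, edgeR quasi-likelihood adjusted p = 0.159). *Gk*, the kinase that traps glycerol in the cell, was at 268 ± 35.0 CPM (SD, n = 5) against 330 ± 32.3 CPM (SD, n = 3). Both gene ranges of KO and control kidneys overlapped.

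For *Aqp1* the genotypes overlapped. *Cxcl12* KO kidneys 1 to 5 had 339, 323, 297, 236 and 398 CPM. Controls 1 to 3 had 356, 339 and 432 CPM. In all, 4 of 5 KO kidneys lay under the mean of the controls (log2 fold change -0.24, SE 0.15, edgeR quasi-likelihood adjusted p = 0.53), and without control 3 the log2 fold change was -0.13. Proximal tubule markers, which mark the main site of *Aqp1*, were lower for 9 of 10 with 0 called and a median log2 fold change of -0.21. Their summed level was 8899 to 12610 CPM in KO and 9712 to 14820 CPM in control kidneys. *Slc5a12*, a lactate transporter, had the smallest p among them (log2 fold change -0.81, edgeR quasi-likelihood adjusted p = 0.132).

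*Aqp2* showed no shift in mean. *Cxcl12* KO kidneys 1 to 5 had 520, 212, 514, 368 and 391 CPM. Control kidneys 1 to 3 were at 335, 303 and 556 CPM. Both groups ranged widely and overlapped (log2 fold change 0.01, SE 0.28, edgeR quasi-likelihood adjusted p = 0.99), and the sign changed with 6 of 20 alternatives.

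*Aqp3* had 62.8, 47.2, 83.6, 44.1 and 54.2 CPM in *Cxcl12* KO kidneys 1 to 5. Controls 1 to 3 had 61.2, 58.0 and 84.7 CPM. KO 3 and control 3 were the high kidneys, and the groups overlapped (log2 fold change -0.23, SE 0.20, edgeR quasi-likelihood adjusted p = 0.66). It was -0.04 without control 3 and -0.39 without KO 3.

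*Aqp4* had 50.9, 9.81, 12.8, 11.3 and 8.43 CPM in *Cxcl12* KO kidneys 1 to 5. The 3 control kidneys were at 26.2, 28.0 and 13.2 CPM. KO 1 stood above all others, while the other 4 KO kidneys lay below all 3 controls. The log2 fold change was -0.26 (SE 0.55, edgeR quasi-likelihood adjusted p = 0.88) and -1.10 without KO 1 (adjusted p = 0.113, the lowest of 20 alternatives).

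Principal cell markers were lower for 8 of the 8 tested in the *Cxcl12* cohort, with 0 called and a median log2 fold change of -0.23. Their summed level was 596 to 919 CPM in KO and 881 to 895 CPM in control kidneys. *Hsd11b2*, which shields the mineralocorticoid receptor from glucocorticoids, was at 17.7 to 37.3 CPM against 47.5 to 73.3 CPM (log2 fold change -1.16, SE 0.23, edgeR quasi-likelihood adjusted p = 0.093). *Scnn1g*, a subunit of the epithelial sodium channel, was at 15.7 to 32.8 CPM against 36.0 to 41.7 CPM. These were the 2 of 8 markers with ranges apart, where 9.68% of all genes had ranges apart in either direction. The other 6 overlapped between genotypes, as *Aqp2* did.

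None of 6 leukocyte markers and none of 7 tubular injury genes was called by edgeR in the *Cxcl12* cohort. At an unadjusted p under 0.05, 4 of each list were higher, against 972 of all 15154 genes tested. In mean, 1 of each list was lower. Leukocyte markers summed to 73.7 to 162 CPM in KO and 66.2 to 66.6 CPM in control kidneys, with *S100a8*, a neutrophil protein, at a log2 fold change of 1.74 (edgeR quasi-likelihood adjusted p = 0.189). Tubular injury genes summed to 14150 to 22120 CPM against 11330 to 12830 CPM, and *Lcn2*, a secreted injury marker, was at 713 to 1254 CPM against 471 to 613 CPM. Neither set of sums overlapped between genotypes, and the sums were not tested. *Spp1* alone made up most of the injury sum (mean 13270 CPM in KO and 8895 CPM in control kidneys). Red blood cell markers summed to 36.1 to 163 CPM against 12.5 to 65.3 CPM, and adipocyte markers, another source of *Aqp7*, to 105 to 246 CPM against 130 to 210 CPM. Endothelial markers, which mark a further site of *Aqp1*, summed to 550 to 806 CPM against 618 to 675 CPM. The genes of smallest p in these lists were *Cdh5* of endothelium (log2 fold change 0.45, edgeR quasi-likelihood adjusted p = 0.245), *Hbb-bt* of red blood cells (1.47, adjusted p = 0.38) and *Adipoq* of adipocytes (-1.52, adjusted p = 0.51). The part of these cells in the aquaporin values was not tested.

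**Figure D2:**
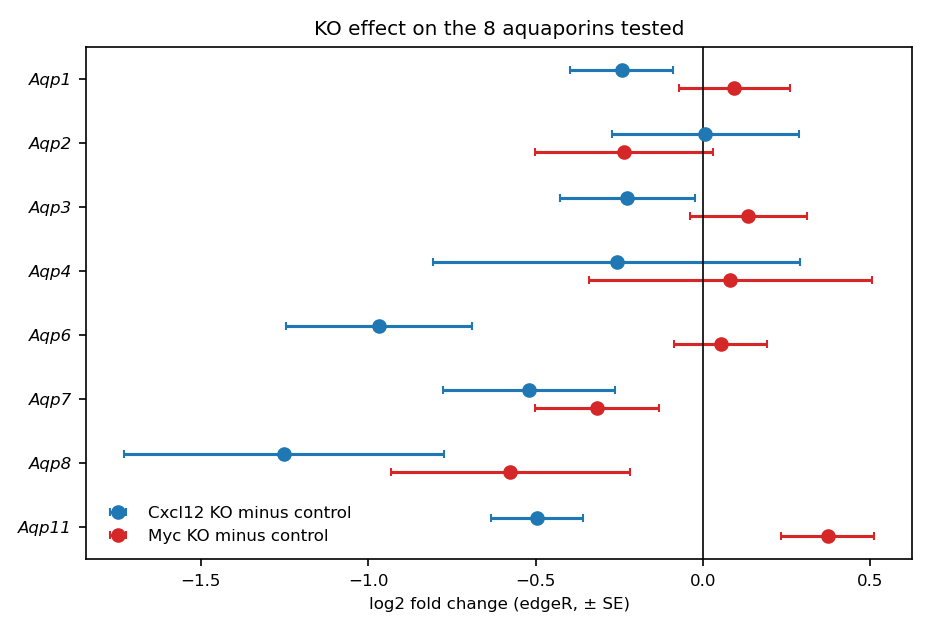
Log2 fold change (x axis, edgeR, bars ± SE) of the 8 tested aquaporins in the *Cxcl12* cohort (blue) and the *Myc* cohort (red), KO minus control. For *Aqp11* the points lie on opposite sides of 0 (-0.50 and 0.37), and for *Aqp6* at -0.97 and 0.05.

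In the *Myc* cohort the same 8 genes had a median log2 fold change of 0.07, against -0.0008 over all 14936 genes tested, and 3 of 8 were lower. By edgeR's quasi-likelihood test 0 of 8 were called, as were 1.65% of all genes. At an unadjusted p under 0.05 the count was 1 of 8 (*Aqp11*, higher) against 21.9% of all genes. DESeq2 called 0 of 7 (7.47% of all genes) and limma voom 0 of 8 (1.44% of all genes). The edgeR count over all genes was 246, and leaving out 1 kidney moved it from 21 (without KO 2) to 877 (without control 3). Ranges were apart for 0 of 8, against 5.97% of all genes.

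*Aqp11* had 19.0, 14.02, 14.4, 17.5 and 12.5 CPM in *Myc* KO kidneys 1 to 5. Controls 1 to 5 had 11.02, 13.96, 13.8, 10.4 and 10.4 CPM. All 5 KO kidneys were above the control mean, but KO 5 was below controls 2 and 3. The log2 fold change was 0.37 (SE 0.14, edgeR quasi-likelihood adjusted p = 0.157, two-sided exact permutation p = 0.0397, where 5 against 5 kidneys allow 0.00794). Within the mapping groups the difference of mean log2 CPM was 0.12 for the 2 against 2 kidneys with few unmapped reads and 0.54 for the 3 against 3 others.

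*Aqp8* was at 0.633, 1.126, 0.640, 1.118 and 0.309 CPM in *Myc* KO kidneys 1 to 5. *Myc* controls 1 to 5 had 0.771, 0.983, 0.914, 1.60 and 1.42 CPM. All 5 KO kidneys lay below the control mean, and the ranges overlapped (log2 fold change -0.58, SE 0.36, edgeR quasi-likelihood adjusted p = 0.36). Without KO 5 it was -0.34. These are 8 to 27 counts per kidney.

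*Aqp7* was at 8.28 to 12.2 CPM in *Myc* KO and 9.04 to 17.96 CPM in *Myc* control kidneys, with control 1 the high one (log2 fold change -0.32, edgeR quasi-likelihood adjusted p = 0.33). The log2 fold change of *Aqp7* was -0.13 without control 1 and -0.06 without the 6 kidneys with few unmapped reads. *Aqp6* was at 10.6 to 14.3 CPM against 9.56 to 15.4 CPM (log2 fold change 0.05, SE 0.14, edgeR quasi-likelihood adjusted p = 0.85). Both genes had overlapping ranges.

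*Aqp1* had 498, 438, 274, 418 and 290 CPM in *Myc* KO kidneys 1 to 5. Controls 1 to 5 had 334, 436, 383, 299 and 347 CPM. The low KO kidneys, 3 and 5, were those with few unmapped reads. Within that mapping group the KO kidneys were lower than controls (mean 282 against 359 CPM) and outside it higher (451 against 361 CPM), so the pooled log2 fold change of 0.09 (SE 0.17, edgeR quasi-likelihood adjusted p = 0.78) averages opposite directions, which was not tested further.

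*Aqp2* had 320, 307, 297, 502 and 445 CPM in *Myc* KO kidneys 1 to 5. Controls 1 to 5 had 300, 280, 457, 376 and 791 CPM. Control 5 was far above all other kidneys, and the ranges overlapped (log2 fold change -0.23, SE 0.27, edgeR quasi-likelihood adjusted p = 0.63). Without control 5 the log2 fold change was 0.09.

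*Aqp3* was at 69.7 to 110 CPM in *Myc* KO and 55.2 to 103 CPM in *Myc* control kidneys, with KO 4 and control 5 the high kidneys (log2 fold change 0.14, SE 0.17, edgeR quasi-likelihood adjusted p = 0.68). Leaving out 1 kidney moved *Aqp3* from 0.01 (without KO 4) to 0.27 (without control 5). *Aqp4* was at 23.0 to 84.9 CPM against 16.9 to 71.4 CPM, with KO 5 and control 3, both with few unmapped reads, the high ones (log2 fold change 0.08, SE 0.42, edgeR quasi-likelihood adjusted p = 0.93). Neither gene had ranges apart.

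The listed nephron genes held no call in the *Myc* cohort. Of 10 proximal tubule markers 3 were lower (median log2 fold change 0.15), of 8 principal cell markers 3 were lower (median 0.09), and of 9 intercalated markers 2 were lower (median 0.27), with 0 called in each. *Slc5a12* had a log2 fold change of 0.69, and *Hsd11b2* of -0.65 (edgeR quasi-likelihood adjusted p = 0.138 and 0.059). *Scnn1g* was lower here too, at 23.0 to 26.1 CPM in KO and 27.3 to 38.9 CPM in control kidneys (log2 fold change -0.40, edgeR quasi-likelihood adjusted p = 0.08). It was the 1 principal cell marker with ranges apart in this cohort, where 5.97% of all genes had ranges apart in either direction. *Slc26a4*, the pendrin exchanger of base-secreting intercalated cells, was at 133 to 222 CPM in KO and 57.3 to 176 CPM in control kidneys (log2 fold change 0.68, adjusted p = 0.176). *Slc4a1*, low in level, was higher in mean here, opposite to the *Cxcl12* cohort (log2 fold change 0.94, edgeR quasi-likelihood adjusted p = 0.185). Of 7 tubular injury genes 3 were lower, with 0 called and a median log2 fold change of 0.26, and their sum was 16670 to 26050 CPM in KO and 14370 to 22930 CPM in control kidneys. *Havcr1*, a proximal tubule injury marker with the smallest p of that list, was at 72.7 to 275 CPM in KO and 206 to 901 CPM in control kidneys. The ranges of the injury sum and of *Havcr1* overlapped. Leukocyte markers summed to 177 to 272 CPM against 94.7 to 246 CPM, and endothelial markers to 743 to 1027 CPM against 660 to 948 CPM. Red blood cell markers summed to 42.6 to 110 CPM against 30.8 to 174 CPM, and adipocyte markers to 162 to 461 CPM against 112 to 286 CPM. All 4 of these ranges overlapped. The genes of smallest p were *Cdh5* (log2 fold change 0.57, edgeR quasi-likelihood adjusted p = 0.121), *Itgam* of leukocytes (0.41, adjusted p = 0.213), *Fabp4* of adipocytes (0.51, adjusted p = 0.296) and *Hba-a1* of red blood cells (-0.09, adjusted p = 0.93).

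**Figure D3:**
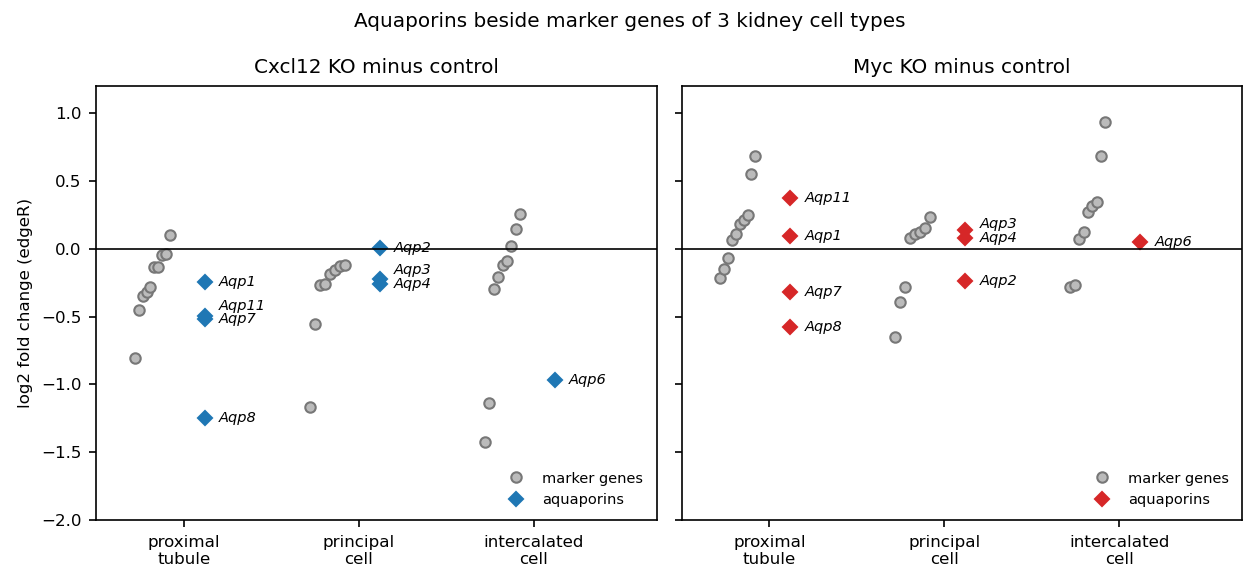
Log2 fold changes (y axis, edgeR) of aquaporins (diamonds) beside marker genes (grey circles) of the cell type each is known from, in the *Cxcl12* cohort on the left and the *Myc* cohort on the right. In the *Cxcl12* cohort the aquaporins lie from 0.01 (*Aqp2*) to -1.25 (*Aqp8*), and the intercalated markers *Slc4a1* and *Insrr* lie lowest of their list at -1.43 and -1.14. *Foxi1* lies highest of that list at 0.25.

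The effect of KO was then compared between the cohorts in 1 model over all 18 kidneys, as *Myc* effect minus *Cxcl12* effect. No aquaporin passed the test (0 of 8 with edgeR's quasi-likelihood test, against 0.0692% of 15903 genes), and 2 of 8 were below an unadjusted p of 0.05 (*Aqp6* and *Aqp11*), against 11.4% of all genes. DESeq2 called 1 of 8 (*Aqp11*) and 2.36% of all genes, and limma voom 0 of 8 and 0.0189% of all genes. *Aqp11* differed by 0.86 log2 units (SE 0.20, edgeR quasi-likelihood adjusted p = 0.077). The DESeq2 adjusted p for *Aqp11* was 0.0087, and without *Myc* KO 5, where 75 genes were called in place of 11, the edgeR adjusted p was 0.048, over a range of 0.0087 to 0.30 in 24 alternatives. *Aqp6* differed by 1.02 log2 units (SE 0.32, edgeR quasi-likelihood adjusted p = 0.183). The other 6 genes differed by -0.25 to 0.68 log2 units with edgeR adjusted p of 0.68 to 0.92.

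The vasopressin pathway controls *Aqp2* through the V2 receptor, cAMP and protein kinase A, and its 20 listed genes gave 0 calls in either cohort. In the *Cxcl12* cohort 11 of 19 tested genes were lower, with a median log2 fold change of -0.07, and *Ptger1*, a prostaglandin E2 receptor that restrains water reabsorption, had the smallest p (23.1 to 28.7 CPM in KO, 29.5 to 31.5 CPM in control kidneys, log2 fold change -0.23, edgeR quasi-likelihood adjusted p = 0.35). In the *Myc* cohort 4 of 19 were lower, with a median of 0.16, and *Nfat5*, the factor of the osmotic stress response, was at 254 to 322 CPM in KO and 165 to 264 CPM in control kidneys (log2 fold change 0.39, edgeR quasi-likelihood adjusted p = 0.127). The V2 receptor gene *Avpr2* could not be measured in the column that ignores the strand. It lies inside *Arhgap4*, on the opposite strand of chromosome X (73892102 to 73895502), and had 0 to 2 counts per kidney there, but 24 to 99 counts in the column of the first strand and 23 to 99 counts in that of the second strand.

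Genes for osmolytes and urea transport, which serve water conservation in the medulla, held 1 called gene of 7 in the *Myc* cohort, where 1.65% of all genes were called. *Slc6a12*, the betaine transporter, was higher in *Myc* KO kidneys, with 4.03 to 5.96 CPM against 2.54 to 3.74 CPM (log2 fold change 0.72, SE 0.16, edgeR quasi-likelihood adjusted p = 0.043). All 5 KO kidneys lay above all controls, where 5.97% of all genes had ranges apart in either direction. The other 6 genes of the list did not pass in that cohort, and none of the 7 passed in the *Cxcl12* cohort (median log2 fold change 0.10 in both). Apart from *Myc* itself, no gene of the other lists was called in the *Myc* cohort. The adjusted p of *Slc6a12* lay close to the threshold, so this single call is not read as a result about the list. *Gpd1l*, a glycerol phosphate dehydrogenase of the glycerol list, had a log2 fold change of -0.36 in the *Myc* cohort (edgeR quasi-likelihood adjusted p = 0.071).

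Further family members lie outside the 9 genes. *Aqp9*, an aquaglyceroporin of liver and leukocytes, was at 0.660 to 1.05 CPM in *Cxcl12* KO and 0.166 to 0.646 CPM in *Cxcl12* control kidneys (log2 fold change 0.99, edgeR quasi-likelihood adjusted p = 0.36), and at 0.869 to 1.78 CPM against 0.739 to 1.19 CPM in the *Myc* cohort. *Mip*, the lens channel, had 0 counts in all kidneys, and *Aqp12* was above 0 only in a single *Myc* control kidney (0.0339 CPM).

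Pairs of aquaporins were compared over all 18 kidneys on log2 CPM less the group mean, 28 pairs in all. *Aqp2* and *Aqp3* varied together. Their Pearson r was 0.796 (permutation p = 0.0005, adjusted p = 0.014) and Spearman's rho was 0.736 (permutation p = 0.00182, adjusted p = 0.051). It was 0.762 without the 2 kidneys farthest from the median of *Aqp2*, 0.783 in the *Cxcl12* cohort and 0.806 in the *Myc* cohort. In the 12 kidneys with more unmapped reads it was 0.847, and in the 6 others 0.771. No other pair passed adjustment. The next was *Aqp1* with *Aqp11* (r = 0.642, permutation p = 0.01395, adjusted p = 0.195).

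**Figure D4:**
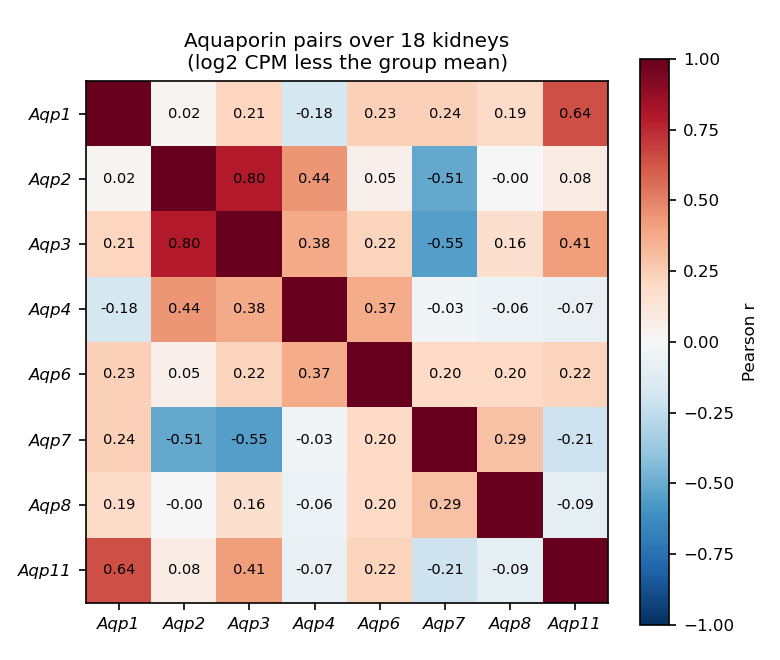
Pearson r of log2 CPM less the group mean between each pair of the 8 tested aquaporins over 18 kidneys, with the colour scale from -1 to 1. *Aqp2* with *Aqp3* has the highest r (0.796) and *Aqp3* with *Aqp7* the lowest (-0.549, permutation adjusted p = 0.47).

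The genes most like each aquaporin over the 18 kidneys, by the same measure, are given as a description. *Aqp1* was most like *Cmbl* (r = 0.929), *Nat8f1* (0.905) and *Dusp2* (0.885). *Aqp2* was most like *Sri* (0.899), *4921531C22Rik* (0.847) and *Ppfia3* (0.841). *Aqp3* was most like *Camk2n1* (0.933), *Lamb2* (0.920) and *Alox12* (0.900). The 18 points of each r share library, depth and scaling between the genes compared.

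*Aqp4* was most like *Muc20* (r = 0.955), *Atp10b* (0.948) and *Lbp* (0.940). *Aqp6* was most like *Ephx1* (0.866), *Ano5* (0.836) and *Efs* (0.833). *Aqp7* was most like *Casp9* (0.876), *Cubn* (0.839), the endocytic receptor of the proximal tubule, and *Gbe1* (0.834). *Aqp8* was most like *St8sia1* (0.878), *Tmem174* (0.872) and *Mapt* (0.854). For *Aqp11* the closest were *Itga2b* (0.826), *Lrrc10b* (0.825) and *Dusp14* (0.823).

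By position, *Aqp2*, *Aqp5* and *Aqp6* lie next to each other on chromosome 15 of GRCm38, from 99579055 to 99605477, all on the + strand. *Aqp3* (41092722 to 41098183) and *Aqp7* (41033074 to 41048139) are neighbours on chromosome 4, both on the - strand. *Aqp8* (123462291 to 123468004) and *Aqp11* (97724006 to 97738289) lie on chromosome 7, and *Aqp1* (55336432 to 55348555) on chromosome 6. No counted gene overlapped the exons of any of these 8.

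The promoter windows of *Aqp2*, *Aqp6* and *Aqp8* are shown because they hold the E-box letters CACGTG, to which MYC and its partner MAX can bind, in genes of this family. The windows are the 250 bases before the RefSeq transcription start on GRCm38.p6, written 5′ to 3′ on the gene strand, and capitals mark motif letters. In *Aqp2* (chr15:99578806-99579055, + strand) the capitals are the E-box at 58 bases before the start, TGACG (read on the other strand) at 211 and AGATAA (other strand) at 202.
Aqp2: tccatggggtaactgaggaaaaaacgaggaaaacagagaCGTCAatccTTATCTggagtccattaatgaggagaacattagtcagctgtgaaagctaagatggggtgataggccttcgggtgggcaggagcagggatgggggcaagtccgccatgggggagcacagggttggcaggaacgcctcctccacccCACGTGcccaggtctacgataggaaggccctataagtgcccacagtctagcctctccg
In *Aqp6* (chr15:99600950-99601199, + strand) and *Aqp8* (chr7:123462044-123462293, + strand) the capitals are the E-box, at 29 and 75 bases before the start.
Aqp6: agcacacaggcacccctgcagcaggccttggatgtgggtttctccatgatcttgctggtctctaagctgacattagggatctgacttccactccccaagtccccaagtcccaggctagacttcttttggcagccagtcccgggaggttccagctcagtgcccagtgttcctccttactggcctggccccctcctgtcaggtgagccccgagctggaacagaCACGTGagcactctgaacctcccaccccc
Aqp8: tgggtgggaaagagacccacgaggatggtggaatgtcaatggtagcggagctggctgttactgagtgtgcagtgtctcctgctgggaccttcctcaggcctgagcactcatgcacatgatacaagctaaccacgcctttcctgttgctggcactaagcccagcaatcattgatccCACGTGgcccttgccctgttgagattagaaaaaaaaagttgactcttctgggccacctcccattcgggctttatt

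Over both strands, the E-box letters were in the windows of *Aqp2*, *Aqp5*, *Aqp6* and *Aqp8*, which is 4 of the 8 aquaporins with a window searched. Those 8 genes had 9 windows. Of 32851 RefSeq windows 6.02% held the letters, a share that was not matched for the content of G and C. No window of *Aqp4* was searched, and the motif results here leave it out. TGACG, part of the site to which the cAMP factor CREB binds, was in *Aqp2* only (17.8% of all windows), TATAAA in *Aqp3* only (12.4%), and AGATAA in *Aqp2* and *Aqp7* (9.99%). The motifs were chosen with the results known, and no motif overlapped another. In the *Myc* cohort, the 3 tested genes with an E-box in the window had log2 fold changes of -0.23 (*Aqp2*), 0.05 (*Aqp6*) and -0.58 (*Aqp8*). The tested aquaporins whose searched windows held none (*Aqp1*, *Aqp3*, *Aqp7* and *Aqp11*) had -0.32 to 0.37. These values overlapped, and a link between the E-box letters and the *Myc* KO effect was not tested. A match of letters describes the window and does not show that a protein is bound there.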

How the data were processed

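The authors trimmed the reads with Trimmomatic 0.32 and counted them per gene with STAR 2.4.0 on GRCm38, and deposited raw counts (tools and build per the submitters' processing notes). Their annotation release is not given in the sources used here. The authors also state a ComBat correction for batches that the labels do not name, and it was not applied here. The deposited counts of the column that ignores the strand were used. Names and exon lengths came from GENCODE vM21, promoter windows from RefSeq on GRCm38.p6.

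KO and control kidneys of a cohort were compared by the quasi-likelihood test of edgeR 4.0.16 (R 4.3.3) after filterByExpr and TMM scaling, with genotype alone as the term and Benjamini-Hochberg adjustment over all genes tested. A gene was called at an adjusted p under 0.05. The cohorts were compared in 1 fit over all 18 kidneys. The standard error (SE) was the size of the log2 fold change divided by the square root of F. Log2 CPM used a prior count of 2, and correlations were permuted 100000 times. Alternatives used RLE scaling, DESeq2 1.42.0, limma 3.58.1 voom, other filters and count columns, the replicate block, and omitted kidneys. Python 3.11.15 was used with scipy 1.17.1, pandas 2.3.3, matplotlib 3.10.9 and numpy 2.4.6. The pipeline was tested on simulated data.

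Genes named are the 9 aquaporins, the target genes, called genes of the fixed lists or else the gene of smallest p, family genes outside the 9, and, for each aquaporin whose own mean was at least 1 CPM, the 3 genes most like it at any level that passed filterByExpr. Some further genes of the lists (*Scnn1g*, *Insrr*, *Foxi1*, *Atp6v1g3*, *Gk* and *Spp1*) and *Avpr2* and *Arhgap4* were named after their values were seen. The members and lists were chosen with earlier results of these data known. All pairs of kidneys of 1 group differed by more than sampling noise, and each kidney was counted as 1 sample.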

Additional observations from a re-analysis of the deposited data

Results flagged for a closer look

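*Aqp3* in *Myc* KO 4 (110.1 CPM) stood apart from the other 4 *Myc* KO kidneys (69.7 to 80.4 CPM) by Dixon's test. *Aqp4* in *Cxcl12* KO 1 (50.87 CPM) stood apart from the other 4 *Cxcl12* KO kidneys (8.43 to 12.8 CPM) by the same test. With 27 groups of kidneys tested, chance is expected to flag about 1 in 20.

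The KO effect on *Aqp11* differed between the cohorts by 0.8625 log2 units (*Myc* minus *Cxcl12*), with all 5 *Cxcl12* KO kidneys below and all 5 *Myc* KO kidneys above the mean of their controls. The difference itself was tested and had an edgeR quasi-likelihood adjusted p of 0.077. Group means of *Aqp11* were 16.9 CPM in *Cxcl12* control, 12.0 in *Cxcl12* KO, 11.9 in *Myc* control and 15.5 CPM in *Myc* KO kidneys, so the control groups differed too.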

How the results depend on the processing

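Of the alternative values of log2 fold changes, 505 kept direction and side of the threshold, 5 newly passed it and 16 changed sign, all of these 16 for values far from the threshold, and the cause was not tested. The number of aquaporins called in the *Cxcl12* cohort rose from 0 to 1 with DESeq2 (*Aqp6*), without a filter on low counts (*Aqp6*) and with a term for the 6 kidneys with few unmapped reads (*Aqp7*), while calls over all genes rose from 0 to 358, 214 and 123. With the replicate block *Aqp3* was -0.09 in that cohort. The number for the difference between cohorts rose from 0 to 1 with DESeq2 (*Aqp11*) and ranged from 0 to 1 when 1 kidney was left out, while calls over all genes rose from 11 to 313 with DESeq2. In the *Cxcl12* cohort, *Aqp2* changed sign with the second strand column (-0.0026), with the replicate block (-0.0010) and on leaving out 1 kidney (-0.15 to 0.32), and *Aqp4* in the paired kidneys without a block (0.14), an alternative chosen after seeing the data. In the *Myc* cohort, *Aqp6* was -0.044 without the 6 kidneys with few unmapped reads. Leaving out 1 kidney gave -0.019 to 0.20 for *Aqp1*, -0.36 to 0.086 for *Aqp2*, -0.37 to 0.42 for *Aqp4* and -0.028 to 0.15 for *Aqp6* in the *Myc* cohort, and -0.57 to 0.072 for *Aqp2* and -0.12 to 1.17 for *Aqp4* in the difference. The values that changed sign also include -0.06 and -0.11 for *Aqp4* in the *Myc* cohort and -0.11, -0.10 and -0.10 for *Aqp2* in the *Cxcl12* cohort.

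The replicate numbers gave no clear sign of pairing. Kidneys of equal number had deviations from their group means with an average r of 0.068 in the *Cxcl12* (-0.03 to 0.14) and 0.056 in the *Myc* cohort (-0.16 to 0.38). For kidneys of different number it was -0.017 (-0.16 to 0.21) and -0.012 (-0.53 to 0.46). With only 3 and 5 pairs of equal number, these values cannot settle whether the kidneys were paired. With the replicate block 0 aquaporins were called in each cohort and in the difference, as without it. Over all genes the block left 18 called in the *Myc* cohort in place of 246. In the *Myc* cohort *Aqp8* was below the filter in either strand column, and DESeq2 gave an adjusted p for 7 aquaporins in each cohort. Depth limits *Aqp5* (2 to 11 counts) and *Aqp8* (7 to 70 counts).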
